A study of Mus musculus with 6 samples.

Results

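The 38 genes described here encode enzymes and receptors of sphingolipid and ganglioside metabolism, and were taken by gene symbol through their Ensembl identifiers from the 60354 features counted in each brain. Expression was compared between 3 control animals, numbered 2, 5 and 10, and 3 PLDP animals, numbered 17, 22 and 26, all of them male C57BL/6NCrSlc mice that were 16 weeks old when feeding began. PLDP mice ate a modified AIN-93M diet with 20% protease-treated porcine liver decomposition product (PLDP) for 16 weeks, and control mice ate a modified AIN-93M diet of matched calories. All mice then went through the same behavioral tests without further PLDP, and RNA was taken from the whole brain afterwards. The brains come from 13 mice per diet, so the 6 sequenced animals are a subset, and region-specific differences are averaged in whole-brain RNA.

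Sphingolipids are membrane lipids built on a sphingoid base instead of glycerol. Serine palmitoyltransferase makes that base, ceramide synthases add a fatty acid, and the resulting ceramide is turned into sphingomyelin, into galactolipids of myelin, or through glucosylceramide into gangliosides, the sialic acid lipids that are abundant on neurons. Ceramidases release sphingosine, whose phosphate is a signal read by receptors on vessels and glia, and lysosomal enzymes take the complex lipids apart. PLDP itself contains phospholipids, sphingomyelin among them.

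Of the 38 genes, 37 had enough reads to be tested. The exception was Sptlc3, a minor catalytic subunit of serine palmitoyltransferase, with 0 to 6 counts per mouse. Depth was between 18797061 and 23938729 counts per mouse, and the other 37 genes had from 31 to 3253 counts in a mouse. Values are CPM, the count of a gene relative to the TMM-scaled library, and the 38 genes together took 1670 to 1690 CPM in controls and 1681 to 1708 CPM in PLDP mice, which overlap. PLDP mouse 17 stood further from the other PLDP mice than any other pair of the same diet: chi-square per degree of freedom was 6.42 and 6.07 in its pairs and 2.62 to 3.60 in the rest. Counts of called genes are therefore also given without this mouse.

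At an unadjusted p under 0.05 in edgeR's quasi-likelihood test, 7 of the 37 genes differed between the diets (called genes), 18.9% of the members against 8.60% of all 18580 features tested. Sgms1, Smpd3, Smpd4 and St3gal5 were higher in PLDP mice, 4 genes where 4.91% of all features were called higher, and Asah2, Sgpl1 and Sgpp1 were lower, 3 genes where 3.69% were called lower. None of the 7 passed 0.05 after Benjamini-Hochberg adjustment over all features, where 6 features (0.0323%) did, and the smallest adjusted p among the members was 0.306. The count of 6 depended on the animals, with 182 features passing without PLDP mouse 17 and 0 or 1 without any single control mouse. The members did not move one way as a group. Their median log2 fold change was 0.00071, that of all features was -0.00062, and 20 members had positive and 17 negative values. The median size of the change without regard to sign was 0.071 over the members and 0.074 over all features. In 9 members the 3 mice of one diet lay entirely on one side of the other 3, which is 24.3% of the members against 14.2% of all features. PLDP values were the higher ones in 4 of these (7.29% of all features) and the lower ones in 5 (6.90% of all features). Without PLDP mouse 17 the call was made for 9 members, against 12.5% of the features: Smpd3 dropped out, and Cers6, St8sia1 and S1pr5 were added. Without control mouse 2, against 5.95% of the features, 3 members were called: Asah2 and St3gal5 of the original 7, and Sptssa, which was added. Leaving out control mouse 5 or 10 gave 5 and 6 called members, against 6.49% and 8.47% of the features, and leaving out PLDP mouse 22 or 26 gave 6 and 5, against 8.18% and 7.24%. Non-overlap became more frequent among all features too when a mouse was left out. Without PLDP mouse 17, 18 members did not overlap, against 29.2% of the features. Without control mouse 2, 5 or 10 the members numbered 11, 12 and 13, against 22.1%, 22.7% and 25.4% of the features, and without PLDP mouse 22 or 26 they numbered 12 and 11, against 24.3% and 23.0%.

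**Figure D1:**
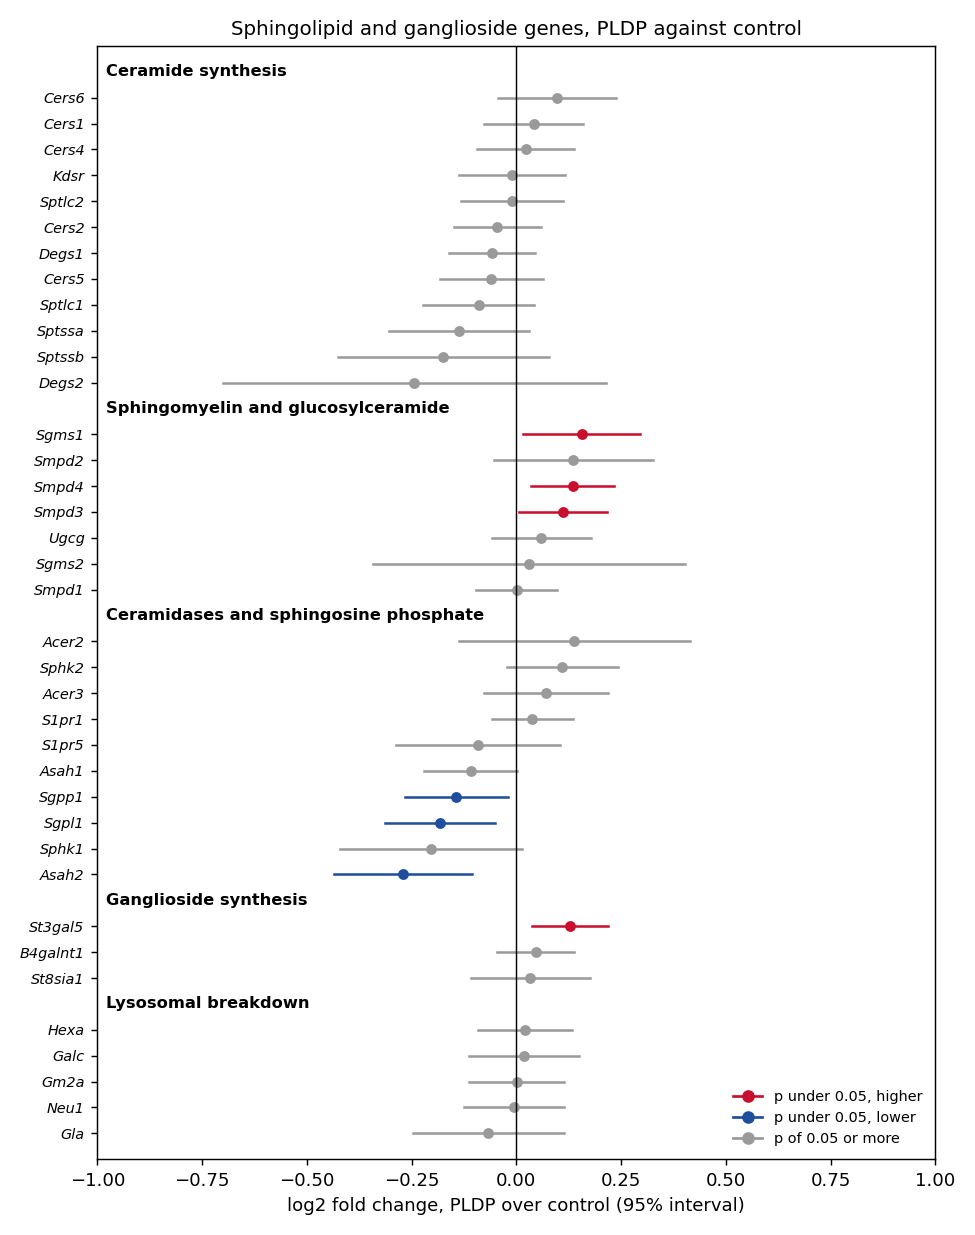
Log2 fold change of the 37 tested genes, PLDP over control, with 95% intervals from edgeR's quasi-likelihood fit of 3 mice per diet, ordered within 5 roles. Red and blue points are the 4 higher and 3 lower genes at an unadjusted p under 0.05; the points run from -0.27 for Asah2 to 0.16 for Sgms1.

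Levels were compared between genes after division by exon length (CPM per kb of the union of exons in GENCODE M21, mean of all 6 mice). The union can be longer than the transcripts expressed, which were not measured, so ranks and shares on this scale depend on it. S1pr1, a receptor for sphingosine 1-phosphate on endothelium and astrocytes, was highest at 42.3 CPM per kb. St3gal5, which makes the ganglioside GM3, followed at 40.8, ahead of B4galnt1 at 31.1, the lysosomal sphingomyelinase Smpd1 at 30.8, the hexosaminidase subunit Hexa at 26.2 and the desaturase Degs1 at 24.8. At the low end were Sgms2 at 0.75, Degs2 at 0.69 and Sptlc3 at 0.048 CPM per kb. The spread of levels between members was far wider than any difference between the diets.

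**Figure D2:**
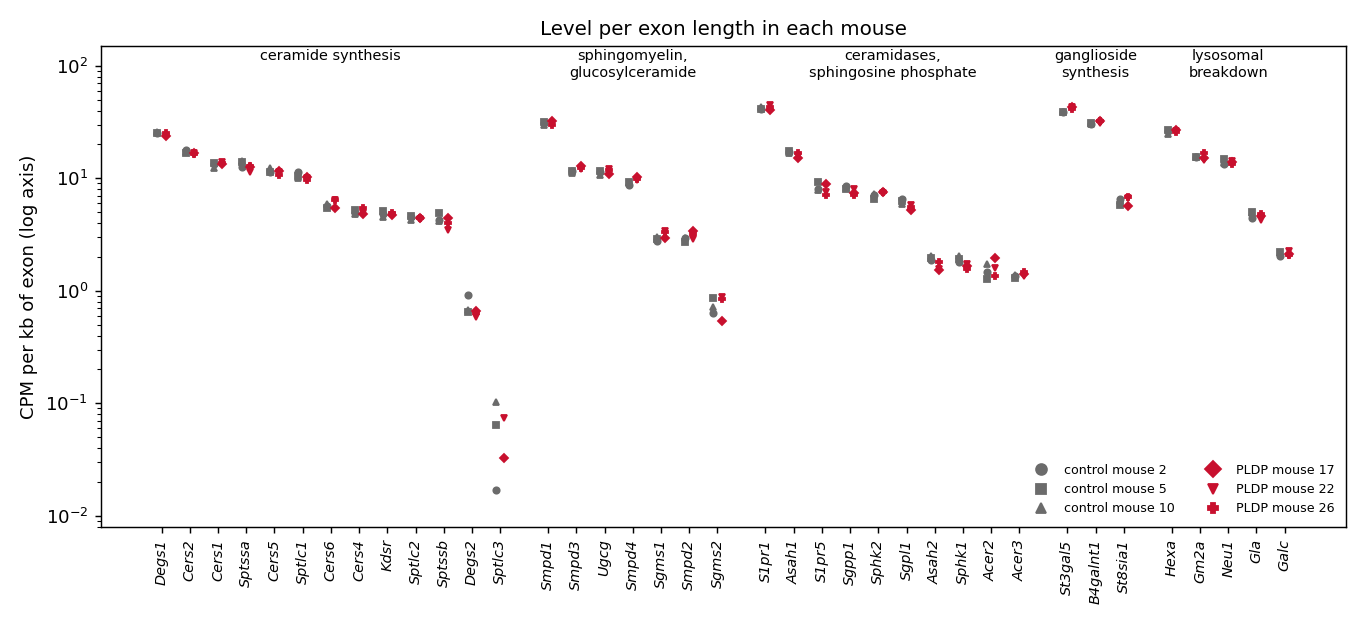
Level of all 38 genes in each mouse as CPM per kb of exon on a log axis, grouped by role. Grey marks are control and red marks PLDP mice, and the marks of both diets lie close together for nearly every gene; Sptlc3 had no count in PLDP mouse 26, which is not drawn.

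None of the 12 tested members of ceramide synthesis was called with all 6 mice, where 8.60% of all features were called. Their median log2 fold change was -0.052, with 9 negative and 3 positive values, and none of them separated the diets, as 14.2% of all features did. Sptlc1 and Sptlc2, the main large subunits of serine palmitoyltransferase, had 37.8 ± 2.67 and 36.1 ± 1.48 CPM in controls and 35.5 ± 0.97 and 35.9 ± 0.38 in PLDP mice (mean ± SD of 3 mice). Its small activating subunit Sptssa had the smallest p of this role. Sptssa had 18.9, 20.97 and 21.5 CPM in control mice 2, 5 and 10 and 19.0, 17.3 and 19.6 in PLDP mice 17, 22 and 26. The log2 fold change of Sptssa was -0.14 (SE 0.08, edgeR adjusted p = 0.652), and the diets overlapped through control mouse 2. Without that mouse the value was -0.19 and Sptssa was called. Sptssb, the other small subunit, had a log2 fold change of -0.17, and Kdsr, which reduces the product of the transferase, one of -0.010.

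Ceramide synthases differ in the length of the fatty acid they attach. Cers2, which uses very long chains and is prominent in oligodendrocytes, took 32.6 ± 0.91% of the summed CPM per kb of the 5 synthases in controls and 31.7 ± 0.62% in PLDP mice (mean ± SD of 3 mice). Cers1, the neuronal synthase for stearoyl ceramide, took 24.97 ± 1.19% and 25.8 ± 0.19%. Cers5 took 22.1 ± 1.09% and 21.3 ± 0.96%, Cers6 10.8 ± 0.47% and 11.6 ± 1.04%, and Cers4 9.46 ± 0.44% and 9.65 ± 0.57%. The shares of each synthase overlapped between the diets. Exons of Cers1 overlap Gdf1 on the same strand and Upf1 on the opposite strand, so reads of these genes may not be told apart in its level and share. Cers6 had 50.6, 48.2 and 52.8 CPM in controls and 47.9, 57.1 and 57.3 CPM in PLDP mice. Its lowest value was thus in PLDP mouse 17 and its 2 highest were in PLDP mice 22 and 26, with a log2 fold change of 0.098 (95% interval -0.043 to 0.24). Without PLDP mouse 17 the value was 0.18 and Cers6 was called. Of the desaturases that complete ceramide, Degs1 was by far the main one and was the most highly expressed gene of this role per exon length. Degs1 had 65.6 ± 1.02 CPM in controls and 63.0 ± 2.00 in PLDP mice (mean ± SD of 3 mice), a log2 fold change of -0.059 (95% interval -0.16 to 0.044). Degs2, with only 31 to 49 counts per mouse, had the widest interval of all members, from -0.70 to 0.21.

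**Figure D3:**
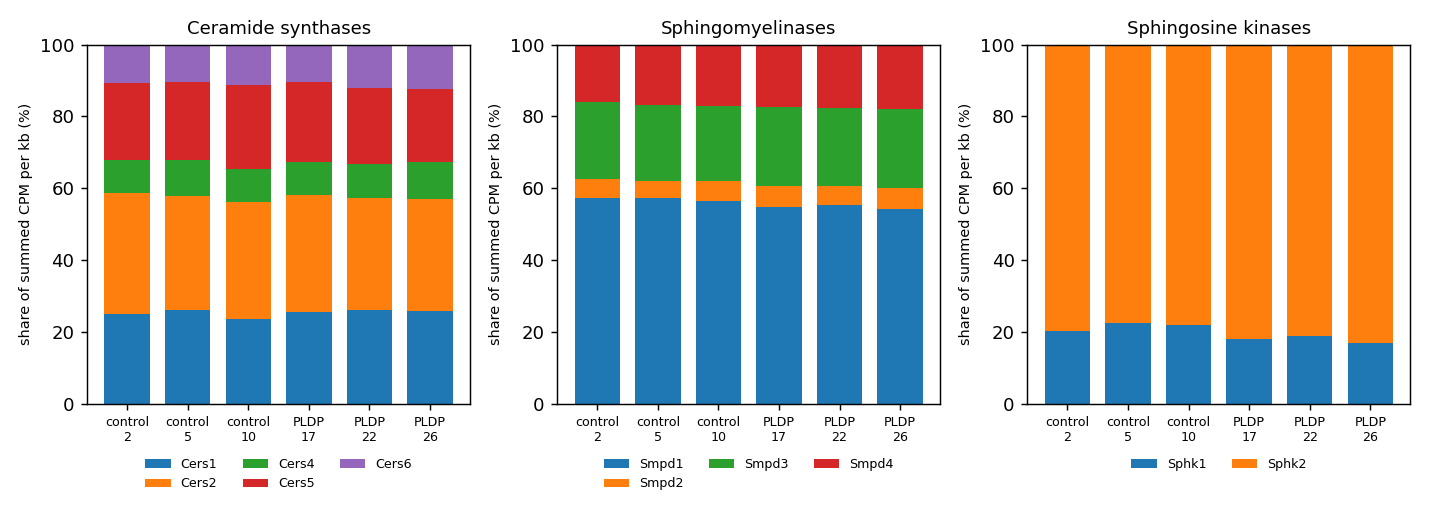
Share of each gene in the summed CPM per kb of exon of its family (%), 1 bar per mouse, for ceramide synthases, sphingomyelinases and sphingosine kinases. Bars of the ceramide synthases differ little between the diets, while the Sphk1 part is 20.1% to 22.4% in the control bars and 17.0% to 18.9% in the PLDP bars.

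Of the genes that make and break sphingomyelin, 3 were called, all of them higher in PLDP mice. All 7 members of this role, which includes glucosylceramide synthase, had log2 fold changes above 0 with the main settings (median 0.11), though Smpd1 and Sgms2 lay so near 0 that their signs depended on the setting, and 3 genes, Sgms1, Smpd3 and Smpd4, rose. Over all features 4.91% were called higher and 49.8% had a positive value. The 4 further sphingomyelin genes tested outside the members were not called, and Smpdl3a among them had a negative log2 fold change of -0.16 (95% interval -0.33 to 0.0054). Per exon length Smpd1 was the highest of them, and it was the one nearest to no difference, with 102.8 ± 2.93 CPM in controls and 102.9 ± 3.74 in PLDP mice (mean ± SD of 3 mice) and a log2 fold change of 0.00055 (95% interval -0.096 to 0.097). The sign of Smpd1 turned without the filter on low counts, with library size only, without control mouse 10 and without PLDP mouse 17, and that of Sgms2 turned without control mouse 2, PLDP mouse 22 or PLDP mouse 26.

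Smpd4 encodes a neutral sphingomyelinase of the nuclear envelope and endoplasmic reticulum. It had 78.5, 84.0 and 81.8 CPM in control mice 2, 5 and 10 and 92.2, 87.4 and 88.5 CPM in PLDP mice 17, 22 and 26. Every PLDP mouse was above every control mouse. The log2 fold change of Smpd4 (ENSMUSG00000005899, chr16:17619354-17644828, plus strand, GRCm38) was 0.13 (SE 0.05, edgeR adjusted p = 0.421), or 9.77% more transcript, and the call was lost without control mouse 2. Smpd3 (ENSMUSG00000031906, chr8:106252548-106337988, minus strand, GRCm38), a neutral sphingomyelinase prominent in brain, had 61.2, 60.2 and 58.1 CPM in controls and 66.7, 63.3 and 64.0 CPM in PLDP mice. Its groups did not overlap either, and its log2 fold change was 0.11 (SE 0.05, edgeR adjusted p = 0.546). The call of Smpd3 was kept in 6 of 13 alternatives, and of the single-mouse exclusions only that of PLDP mouse 22 kept it. Smpd2, a further neutral sphingomyelinase, had 12.8 ± 0.58 CPM in controls and 14.1 ± 1.19 in PLDP mice (mean ± SD of 3 mice) and was not called. Within the 4 sphingomyelinases, the share of Smpd1 per exon length was 56.3% to 57.3% in controls and 54.2% to 55.4% in PLDP mice, and that of Smpd4 was 15.9% to 17.1% and 17.5% to 17.8%.

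Sgms1 (ENSMUSG00000040451, chr19:32122727-32389714, minus strand, GRCm38), the sphingomyelin synthase of the Golgi, had 29.2, 30.2 and 31.9 CPM in control mice 2, 5 and 10 and 31.3, 35.5 and 34.8 CPM in PLDP mice 17, 22 and 26. PLDP mouse 17 lay within the control range and the other PLDP mice lay above it. The log2 fold change of Sgms1 was 0.16 (SE 0.07, edgeR adjusted p = 0.519), and the call was kept in 8 of 13 alternatives, being lost with DESeq2 and without control mouse 2, control mouse 5, PLDP mouse 22 or PLDP mouse 26. Sgms2, the synthase of the plasma membrane, was much less abundant, with 4.61 ± 0.73 CPM in controls and 4.71 ± 1.16 in PLDP mice (mean ± SD of 3 mice). Sgms1 held 76.8% to 81.4% of the pair per exon length in controls and 79.2% to 84.5% in PLDP mice. Ugcg, glucosylceramide synthase, had 58.4 ± 2.80 and 60.8 ± 3.45 CPM, with a log2 fold change of 0.060 (95% interval -0.059 to 0.18). Exons of Sgms1 and Smpd3 overlap genes on the opposite strand in GENCODE M21 (2700046G09Rik and Prmt7), as do those of Cers2, Cers4, Degs2, Smpd2, Sphk1, S1pr5, B4galnt1, St8sia1, Galc and Hexa, and whether the counting used strand is not given in the sources used here.

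In the release of sphingosine and the handling of its phosphate, 3 of 10 members fell and none rose, where 3.69% of all features were called lower and 4.91% higher, and the median log2 fold change of the role was -0.10. In 6 of the 10 the mice of the diets did not overlap: Asah1, Asah2, Sphk1, Sgpl1 and Sgpp1 were lower and Sphk2 was higher in every PLDP mouse, where 14.2% of all features did not overlap (6.90% lower, 7.29% higher). Of the 7 further genes of this role tested outside the members none was called, and the 2 that did not overlap, the receptor S1pr3 and the transporter Mfsd2b, were higher in PLDP mice, with log2 fold changes of 0.18 (95% interval -0.060 to 0.42) and 0.28 (95% interval -0.14 to 0.71). Asah2, the neutral ceramidase of the cell surface, showed the largest fall of any called member. It had 22.1, 22.8 and 23.8 CPM in control mice 2, 5 and 10 and 18.0, 18.0 and 21.1 CPM in PLDP mice 17, 22 and 26. Its highest PLDP value was thus still below its lowest control value. Asah2 (ENSMUSG00000024887, chr19:31982597-32108211, minus strand, GRCm38) had a log2 fold change of -0.27 (SE 0.08, edgeR adjusted p = 0.306), and its unadjusted p stayed under 0.05 in all 13 alternatives. Asah1, the lysosomal acid ceramidase, had 58.5, 58.7 and 56.7 CPM in controls and 51.3, 53.6 and 56.5 CPM in PLDP mice. The groups were separated by a small margin, and the log2 fold change of -0.11 was not called (SE 0.05, edgeR adjusted p = 0.589). Acer2 and Acer3, the ceramidases of the Golgi and endoplasmic reticulum, had log2 fold changes of 0.14 and 0.071, and both were not called. The value of Acer2 rested on single mice, being -0.010 without PLDP mouse 17, 0.035 without control mouse 5 and 0.25 without control mouse 10 or PLDP mouse 26.

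Sphingosine 1-phosphate is made by the kinases Sphk1 and Sphk2, returned to sphingosine by the phosphatase Sgpp1 and cleaved for good by the lyase Sgpl1. Sgpl1 (ENSMUSG00000020097, chr10:61098642-61147703, minus strand, GRCm38) had 40.3, 38.5 and 36.5 CPM in control mice 2, 5 and 10 and 32.1, 35.6 and 33.9 CPM in PLDP mice 17, 22 and 26. The highest PLDP value was below the lowest control value. The log2 fold change of Sgpl1 was -0.18 (SE 0.06, edgeR adjusted p = 0.402), and the call was lost only without control mouse 2 among 13 alternatives. Sgpp1 (ENSMUSG00000021054, chr12:75714249-75735729, minus strand, GRCm38) had 47.9, 45.3 and 46.3 CPM in controls and 41.4, 44.9 and 39.8 CPM in PLDP mice. PLDP mouse 22 came close to control mouse 5 without reaching it. Its log2 fold change was -0.14 (SE 0.06, edgeR adjusted p = 0.497), and the call was lost without control mouse 2 or PLDP mouse 26 among 13 alternatives.

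The sphingosine kinases were not called, although neither gene's values overlapped between the diets. Sphk1, the cytoplasmic kinase, had 8.55, 9.06 and 9.68 CPM in controls and 7.89, 8.29 and 7.47 CPM in PLDP mice, a log2 fold change of -0.20 (95% interval -0.42 to 0.014). Sphk2, the main kinase in these brains, had 29.6, 27.4 and 30.2 CPM in controls and 31.2, 31.1 and 31.7 CPM in PLDP mice, a log2 fold change of 0.11 (95% interval -0.022 to 0.24). Per exon length, Sphk1 made up 20.1%, 22.4% and 21.9% of the pair in control mice 2, 5 and 10 and 18.0%, 18.9% and 17.0% in PLDP mice 17, 22 and 26. With 3 mice against 3, an exact two-sided permutation test of such a share cannot give a p under 0.1. Exons of Sphk2 overlap Dbp and Rpl18 on the opposite strand. Of the receptors for sphingosine 1-phosphate, S1pr1 had 127.1 ± 2.69 CPM in controls and 130.6 ± 6.59 in PLDP mice (mean ± SD of 3 mice), a log2 fold change of 0.039 (95% interval -0.058 to 0.14). S1pr5, the receptor of mature oligodendrocytes, had 19.9, 23.3 and 19.7 CPM in controls and 22.4, 18.8 and 17.8 CPM in PLDP mice. PLDP mouse 17 was the second highest of the 6, and the log2 fold change of S1pr5 was -0.091 with it and -0.19 without it, where the gene was called.

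**Figure D4:**
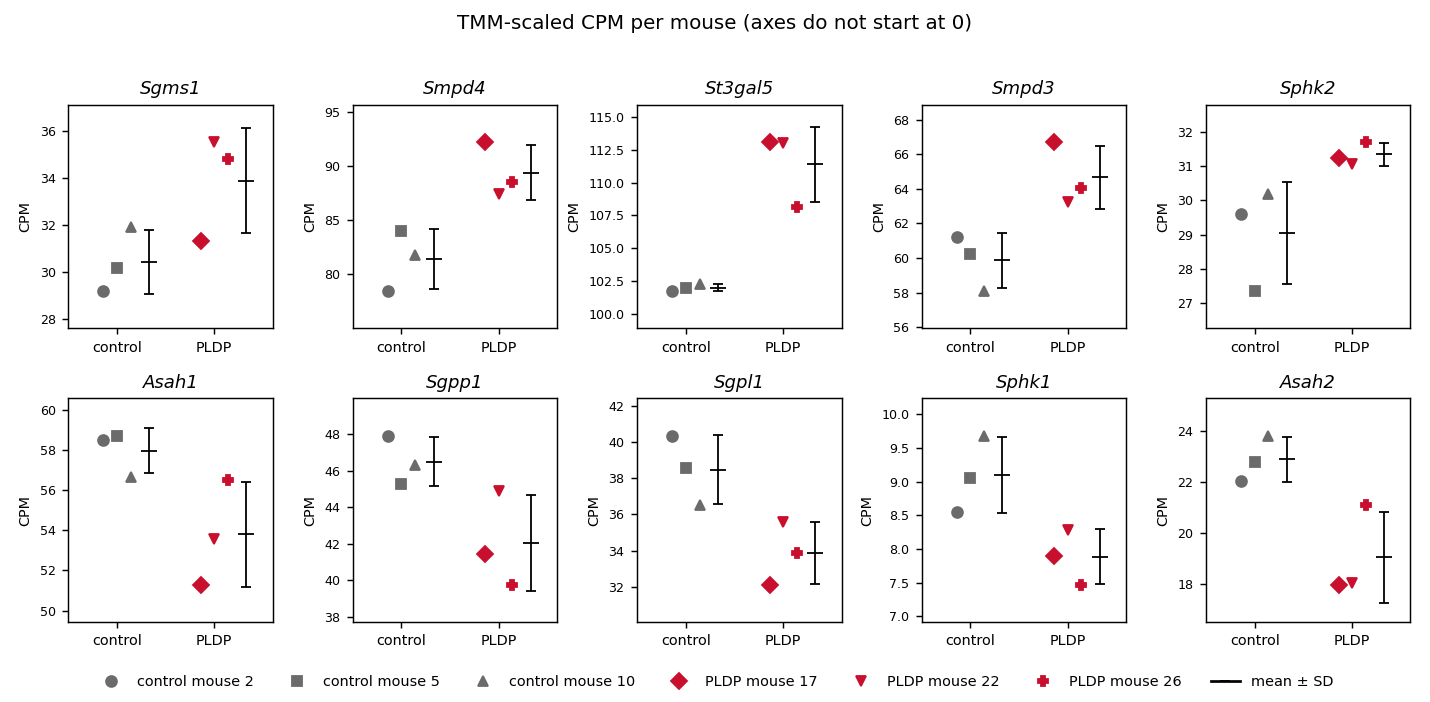
CPM in each mouse for the 7 called genes and for Sphk2, Asah1 and Sphk1, whose diets did not overlap, with the mean and SD of 3 mice per diet in black; axes do not start at 0. Of these 10 genes only Sgms1 overlaps between the diets, through PLDP mouse 17 at 31.3 CPM.

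The called genes whose annotated starts in RefSeq and GENCODE M21 lie within 50 bases of each other are shown by the 150 bases before the more upstream start, to set the 2 genes that rose beside the 2 that fell. The sequences are RefSeq promoters of build GRCm38.p6, written 5′ to 3′ on the gene's strand. St3gal5 is at chr6:72097442-72097591 on the plus strand, Smpd4 at chr16:17619204-17619353 on the plus strand, Sgpl1 at chr10:61147704-61147853 on the minus strand and Sgpp1 at chr12:75735730-75735879 on the minus strand. Capitals mark the letters of a GC box, GGGCGG on either strand.
St3gal5: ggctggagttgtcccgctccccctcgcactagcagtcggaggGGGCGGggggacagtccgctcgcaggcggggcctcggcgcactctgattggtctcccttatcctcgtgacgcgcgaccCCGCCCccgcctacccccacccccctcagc
Smpd4: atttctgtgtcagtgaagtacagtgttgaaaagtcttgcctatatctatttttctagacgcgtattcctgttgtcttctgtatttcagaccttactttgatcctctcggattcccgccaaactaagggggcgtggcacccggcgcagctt
Sgpl1: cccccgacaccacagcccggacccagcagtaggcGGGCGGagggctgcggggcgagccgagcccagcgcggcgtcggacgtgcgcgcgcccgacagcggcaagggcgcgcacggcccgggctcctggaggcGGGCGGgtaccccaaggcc
Sgpp1: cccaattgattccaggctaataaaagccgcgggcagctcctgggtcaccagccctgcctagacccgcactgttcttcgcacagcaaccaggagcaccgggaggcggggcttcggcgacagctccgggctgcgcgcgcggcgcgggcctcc
The stretches of St3gal5 and Sgpl1 each hold 2 GC boxes, and those of Smpd4 and Sgpp1 hold 0, so the motif was found on both sides of the diet comparison. In the whole 300-base window (250 before and 50 after the start), 25 of the 34 members with a listed promoter held a GC box, against 35.7% of all 32851 listed promoters. The E-box CACGTG was found in 5 of the 34 (7.15% of all promoters), the AP-1 letters TGACTCA in 3 (5.20%) and the CRE letters TGACGTCA in 1, Sphk2 (1.79%), on either strand in each case. A single promoter was taken per member, while the background held every listed promoter of 300 bases, whether or not its gene is expressed in brain. The member counts and background shares are therefore not like for like.

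Of the 3 members in ganglioside synthesis, St3gal5 rose and the other 2 were not called, where 8.60% of all features were called. Of the 13 further genes tested for the synthesis of gangliosides and neutral glycolipids, 1 (St8sia5) was called higher and none lower. Over all features 4.91% were called higher and 3.69% lower. The enzyme encoded by St3gal5 adds the first sialic acid to lactosylceramide and so opens the ganglioside series. St3gal5 (ENSMUSG00000056091, chr6:72097592-72154571, plus strand, GRCm38) had 101.8, 102.0 and 102.3 CPM in control mice 2, 5 and 10 and 113.1, 113.0 and 108.1 CPM in PLDP mice 17, 22 and 26. The control mice were nearly identical and every PLDP mouse lay above them. Its log2 fold change was 0.13 (SE 0.04, edgeR adjusted p = 0.399), 9.23% more transcript, and the call was kept in all 13 alternatives. B4galnt1, which extends GM3 towards the complex brain gangliosides, had 105.7 ± 1.61 CPM in controls and 109.2 ± 2.59 in PLDP mice (mean ± SD of 3 mice), a log2 fold change of 0.046 (95% interval -0.045 to 0.14). St8sia1, which makes the b-series ganglioside GD3, had 60.9, 54.2 and 58.3 CPM in controls and 52.4, 61.9 and 63.1 CPM in PLDP mice. As for Cers6, PLDP mouse 17 held the lowest value and PLDP mice 22 and 26 the highest. The log2 fold change of St8sia1 was 0.033 in all 6 mice, 0.11 without PLDP mouse 17, where it was called, and below 0 without control mouse 5, PLDP mouse 22 or PLDP mouse 26.

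The 5 lysosomal genes showed the smallest differences of the roles, with a median size of 0.019 on the log2 scale. Galc, which degrades galactolipids of myelin, Hexa and its activator Gm2a, which degrade the ganglioside GM2, the galactosidase Gla and the sialidase Neu1 had log2 fold changes between -0.067 for Gla and 0.020 for Hexa, and none of the 5 was called, against 8.60% of all features. Hexa had the highest level per exon length, with 52.0 ± 2.26 CPM in controls and 52.7 ± 1.41 in PLDP mice (mean ± SD of 3 mice). Gla, with the smallest p of this role (edgeR adjusted p = 0.882), had 15.6 ± 0.94 and 14.9 ± 1.02 CPM. The 95% intervals of the 5 genes lay between -0.25, the lower bound of Gla, and 0.15, the upper bound of Galc. Over all 30 members that were tested and not called, the intervals ran from -0.70 to 0.41.

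Outside the 38 genes, a list of 57 further genes of the pathway was examined, of which 53 were tested. Of these, 3 were called (5.66%, against 8.60% of all features), with a median log2 fold change of 0.0034. St8sia5, a sialyltransferase of complex gangliosides, had 92.3, 78.5 and 93.5 CPM in control mice 2, 5 and 10 and 96.4, 98.0 and 100.2 CPM in PLDP mice 17, 22 and 26, a log2 fold change of 0.16 (edgeR adjusted p = 0.448). Every PLDP mouse was above every control mouse, and without control mouse 5, the lowest of the 6, the log2 fold change was 0.080 and the call was lost. Ugt8a, which makes the galactosylceramide of myelin, had 58.9, 57.2 and 57.7 CPM in controls and 50.2, 53.2 and 55.8 CPM in PLDP mice, a log2 fold change of -0.13 (edgeR adjusted p = 0.507). Npc1, a lysosomal cholesterol exporter, had 79.4, 75.5 and 79.3 CPM in controls and 64.4, 76.8 and 72.6 CPM in PLDP mice, with overlap through PLDP mouse 22 and a log2 fold change of -0.13 (edgeR adjusted p = 0.559). Ugt8a was no longer called with DESeq2 or without control mouse 2, control mouse 10 or PLDP mouse 17, and Npc1 was lost in the same settings and without PLDP mouse 26. The log2 fold change of Npc1 was -0.061 without PLDP mouse 17. Genes next to the called members in the pathway include several that were not called. Cerk and Col4a3bp, the kinase and the transfer protein of ceramide, had log2 fold changes of -0.0056 and -0.024, and Psap, the precursor of the lysosomal activator proteins, was the most abundant of the list at 1626 to 1687 CPM with a log2 fold change of 0.0067.

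Marker lists of cell types and of the brainstem were measured in the same mice, and their part in the results was not tested. Their counts are to be read against the 3.69% of all features called lower and the 4.91% called higher. The sums of the brainstem, choroid plexus and oligodendrocyte precursor lists did not overlap between the diets, and those of the other 6 lists did. In bulk tissue, fewer cells of a type and less RNA per cell cannot be told apart. Of 9 oligodendrocyte markers, 3 (Mbp, Ermn and Aspa) fell and none rose, and the summed level of the 9 was 5223 to 5611 CPM in controls and 4858 to 5476 in PLDP mice. All 9 genes of a brainstem list, which was drawn up with earlier results of these data known, fell, from a sum of 156.2 to 169.1 CPM to one of 82.8 to 121.0 CPM. Of 6 choroid plexus markers, Ttr and Folr1 fell, and the list summed to 742.3 to 801.1 CPM in controls and 582.5 to 741.7 CPM in PLDP mice. Most of this sum was Ttr, at 678.2 to 727.4 CPM in controls and 534.5 to 668.6 CPM in PLDP mice. Kl, Folr1, Clic6, Kcnj13 and Otx2 each overlapped between the diets. Of 7 endothelial markers, Pecam1 and Flt1 rose (sum 178.7 to 188.2 and 182.3 to 203.9 CPM). Log2 fold changes were above 0 for 6 of the 7 and below 0 for Slco1a4, at -0.14, which was not called. Of 8 astrocyte and 8 microglia markers, 1 each was called lower (Aqp4 and P2ry12), and the sums overlapped, at 3805 to 3895 and 3813 to 3915 CPM for astrocytes and 265.0 to 278.8 and 255.8 to 276.5 CPM for microglia in controls and PLDP mice. Log2 fold changes were positive for 4 and negative for 4 astrocyte markers, and positive for 2 and negative for 6 microglia markers. The astrocyte marker Gjb6 was higher in every PLDP mouse but was not called. Of the 8 neuronal, 5 blood and 3 oligodendrocyte precursor markers measured none was called. The 3 precursor markers nevertheless summed to 75.3 to 79.3 CPM in controls and 81.3 to 85.9 CPM in PLDP mice, without overlap. No marker measured was at 0 in all mice, and summed neuronal markers were at 5219 to 5348 and 5214 to 5403 CPM.

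**Figure D5:**
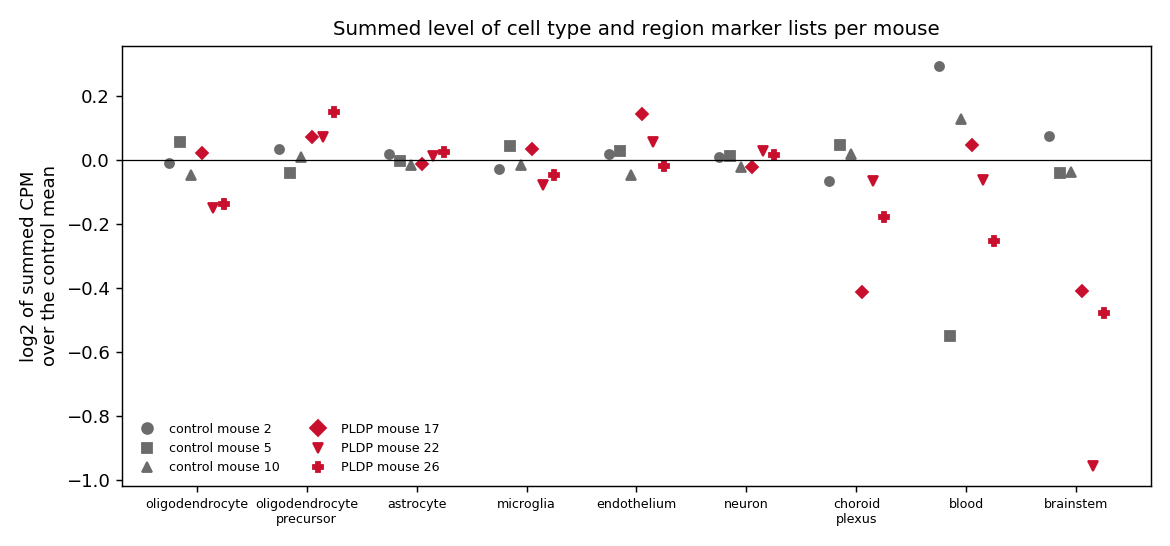
Log2 of the summed CPM of each marker list in each mouse over the mean of the 3 control mice. The brainstem list is lower in every PLDP mouse, neuronal and astrocyte sums stay close to 0 in all 6 mice, and the blood list varies most among the control mice, from 325.3 to 583.7 CPM.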

How the data were processed

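Polyadenylated RNA of 6 whole brains was sequenced with a stranded kit. The authors deposited raw read counts per gene and mouse. The submitters' processing notes name cutadapt 2.9, HISAT2 2.2.0, featureCounts 2.6.0 and DESeq2 1.6.3, and list GRCm38 and also the human build GRCh38; the identifiers are those of mouse genes. The annotation, strand setting and treatment of shared reads are not given in the sources used here, so levels of overlapping genes are uncertain. Mice were grouped by their titles. Symbols, positions and exon lengths came from GENCODE M21 (GRCm38), which holds 54694 of 55034 Ensembl identifiers on its reference chromosomes; 5320 numbered features without position were kept in the fit.

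All features were fitted together in edgeR 4.0.16 (R 4.3.3) with filterByExpr (minimum count 10, minimum total 15), TMM scaling, the quasi-likelihood functions glmQLFit and glmQLFTest, no covariate besides diet, and p-values were adjusted by Benjamini-Hochberg over 18580 features. Genes were called at an unadjusted p under 0.05, the study's level. The fits were tested on simulated data whose changes were larger than that of any member, so changes of the members' size were not covered. No pair of mice of a diet agreed within counting noise, so each was 1 replicate. The spread behind each p-value is that between separate mice, drawn by the quasi-likelihood fit towards a trend over all features, and not that gene's spread alone.

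Members and lists were chosen with earlier results of these data known. A marker gene is not reported here and was left out of its list. Every member is named, with full statistics for called members and, per role, for the member highest per exon length and that of smallest p; further pathway genes were described in full if called, and Cerk, Col4a3bp, Psap, Smpdl3a, S1pr3 and Mfsd2b, chosen after their values were seen, and the markers are given in addition. Promoters came from RefSeq (GRCm38.p6); motifs were chosen after the calls were known. Alternatives were no filter, at least 10 counts in every mouse, RLE, upper-quartile and library-size scaling, DESeq2 1.42.0, limma 3.58.1 voom, and leaving out each mouse. Plots used matplotlib 3.10.9.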

Additional observations from a re-analysis of the deposited data

How the results depend on the processing

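Of the 7 called members, all were called with at least 10 counts in every mouse, with RLE or upper-quartile factors, with library size only and with limma voom, while no filter lost Smpd3 and DESeq2 lost Smpd3 and Sgms1. Leaving out 1 mouse gave 3 to 9 called members, 11 to 18 members without overlap between the diets (22.1% to 29.2% of all features), a median log2 fold change of members from -0.016 to 0.025, and 2 to 5 called genes in the further pathway list (5 without PLDP mouse 22). The largest count of called members came without PLDP mouse 17 and the smallest without control mouse 2, which ended the calls of Sgms1, Smpd3, Smpd4, Sgpl1 and Sgpp1. Without PLDP mouse 26, Sgms1, Smpd3 and Sgpp1 were lost and Asah1 was added. DESeq2 called 926 features in all against 1598 in edgeR, and 1 further pathway gene against 3; the cause was not tested. Adjusted p under 0.05 was reached by 6 features in edgeR, by 180 without the filter, 24 with DESeq2, 3 with limma voom, 1 with library size only, and 0 to 182 when a mouse was left out (0 without control mouse 5, where 1226 had an unadjusted p under 0.05), and by none of the members in any of these. None of the 7 called members changed sign in any of these alternatives, while 11 of the 30 members not called did in at least 1. No paired analysis was possible because the mice of the diets share no number in the labels. Depth limits genes with few reads such as Sptlc3 and Degs2.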
